A study of Mus musculus with 9 samples.

Results

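The Adam, Adamts and Adamts-like genes of the mouse encode a family of metalloproteases and of related matrix proteins. Members were all protein-coding genes whose symbol in the GENCODE M21 annotation of the GRCm38 build starts with Adam followed by a digit, with Adamts or with Adamtsl. This gave 57 genes, and all 57 were among the 38293 genes of the deposited count table. They comprised 33 Adam, 19 Adamts and 5 Adamts-like genes.

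RNA was sequenced from left ventricular tissue labelled as the infarcted region, in 9 male C57BL/6 mice with a labelled age of 8 weeks. The first group, 3 mice, had ischemia-reperfusion, in which the left anterior descending artery of the heart was tied for 1 hour and then released, and tissue was taken 14 days later. The second group, 3 further mice, had the same operation and gave tissue after 1 day, labelled as 24 hr. The reference was 3 mice with a sham operation, whose collection time is not given in the labels. The headers of the 3 columns at 14 days are identical, and A, B and C are used as names for them; the 1-day libraries are those of mice 4, 5 and 6 and the sham libraries those of mice 1, 2 and 3.

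Adam proteins sit in the cell membrane and release the outer part of other membrane proteins, a process called shedding, which frees cytokines, growth factors and adhesion molecules. Adamts proteins carry thrombospondin repeats, are secreted, and cut matrix proteins such as proteoglycans and the procollagens. Adamts-like proteins lack the protease domain and bind to the matrix, in particular to fibrillin microfibrils. In the heart, members of the family are known for roles in valve formation, in growth factor release in hypertrophy and in the turnover of the matrix.

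Total counts ran from 20215781 to 36816818 per library, and 52.0% to 71.8% of them fell on mitochondrially encoded genes. Levels are CPM, counts scaled to 1000000 per library, with the library size corrected by the trimmed mean of M-values (TMM), and levels of different genes are compared only as CPM per kilobase of exonic length. A count of 3 in a library equals 0.0679 to 0.192 CPM, and lower values are read as background. Cardiomyocyte markers summed to 12110 to 16470 CPM at 14 days, 6497 to 12320 CPM at 1 day and 17100 to 19570 CPM in sham, whereas 3 atrial markers summed to 0.477 to 1.21 CPM over all libraries. In an analysis of principal components the 1-day library of mouse 6 lay apart from those of mice 4 and 5, at 37.2 against 78.0 and 78.7 on the main component. In tissue of this kind, fewer cells of a type and less RNA per cell cannot be told apart.

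Of the 57 members, 34 passed the filter on low counts and were tested: 13 Adam, 16 Adamts and 5 Adamts-like genes. The other 23 were not tested. Of these, 11 had no count in any library, namely Adam1b, Adam24, Adam25, Adam26a, Adam28, Adam29, Adam34, Adam39, Adam6b, Adam7 and Adamts13, the plasma protease that cuts von Willebrand factor. A further 7 had 1 to 9 counts over all libraries: Adam18, Adam2, Adam20, Adam26b, Adam3, Adam6a and Adamts18. The last 5 had 10 or more, with 47 counts for Adam21, 11 for Adam30, 59 for Adam32, 26 for Adam5 and 30 for Adamts16. Chromosome 8 carries 14 members, 13 of them Adam genes, and only Adam9 among these 14 was tested. Adam32 and Adam9 lie 0.806 kb apart on the same strand. Over all libraries Adam32 had 59 counts and Adam9 had 10411, with mean levels of 0.0807 and 9.67 CPM per kb of exonic length.

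A gene was called at an adjusted p under 0.05 in edgeR's quasi-likelihood test over all 14124 genes tested. At 1 day, 11 of the 34 tested members (32.4%) were called higher than in sham, against 29.4% of all genes tested, and 7 (20.6%) were called lower, against 24.8%. The 18 members called in either direction made up 52.9%, against 54.2% of all genes, so the share of the family that was called was close to that of all genes. At 14 days, 9 members (26.5%) were called higher than in sham, against 8.75% of all genes, and 2 (5.88%) lower, against 5.64%, which gave 11 (32.4%) in either direction, against 14.4%. Between the 2 times after the operation, 10 members (29.4%) were called higher at 14 days than at 1 day, against 25.1% of all genes, and 11 (32.4%) lower, against 26.8%, or 21 (61.8%) in either direction, against 51.9%. The median log2 fold of the tested members was 0.13 at 1 day against sham, 0.32 at 14 days against sham and 0.21 at 14 days against 1 day, where the medians of all genes were 0.045, 0.014 and 0.0047. Both comparisons with sham use the same 3 sham libraries. Of all calls, 54.3%, 60.8% and 48.4% were higher in these 3 comparisons, and 86.6%, 86.5% and 16.3% when libraries were scaled by their total count only, which moved the median of all genes to 0.53, 0.11 and -0.38. By total count 6860 genes were called higher and 1057 lower at 1 day against sham, where TMM gave 4153 and 3496. At 14 days the total-count numbers were 720 and 112 against sham, and 1066 and 5469 against 1 day.

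In all, 25 of the 34 tested members were called in at least 1 comparison. The matching share of all genes, and the shares of all genes with the patterns below, were not computed. Of all genes, 54.2% were called at 1 day against sham and 51.9% between the 2 times. The counts of patterns therefore describe the members alone. The most frequent pattern, in 7 members, was a level above sham at 1 day that was lower again at 14 days and then not called against sham, seen in Adam8, Adam9, Adam12, Adam15, Adamts1, Adamts4 and Adamts14. A dip at 1 day, with a higher level at 14 days than at 1 day and no call against sham at 14 days, was found in Adam23, Adamts3 and Adamts17. Adamts5 and Adamtsl2 were called lower at 1 day and higher at 14 days than in sham. Adamts2 was called higher in every one of the 3 comparisons, and Adamts6 and Adamts8 were called higher than sham at both times. Adamtsl5 was called higher at 1 day and lower at 14 days than in sham, and Adam19 was called lower at both times. Against sham, Adamts10, Adamts12, Adamtsl1 and Adamtsl3 were called higher at 14 days and not at 1 day. Adamts7 was called lower than sham at 1 day and not at 14 days. Adamts12 and Adamts7 were not called between the 2 times, so a difference between the times was not shown for them. Adam17, Adam22 and Adamts9 were called between the 2 times alone. The 9 members with no call were Adam10, Adam11, Adam1a, Adam33, Adam4, Adamts15, Adamts19, Adamts20 and Adamtsl4.

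**Figure D1:**
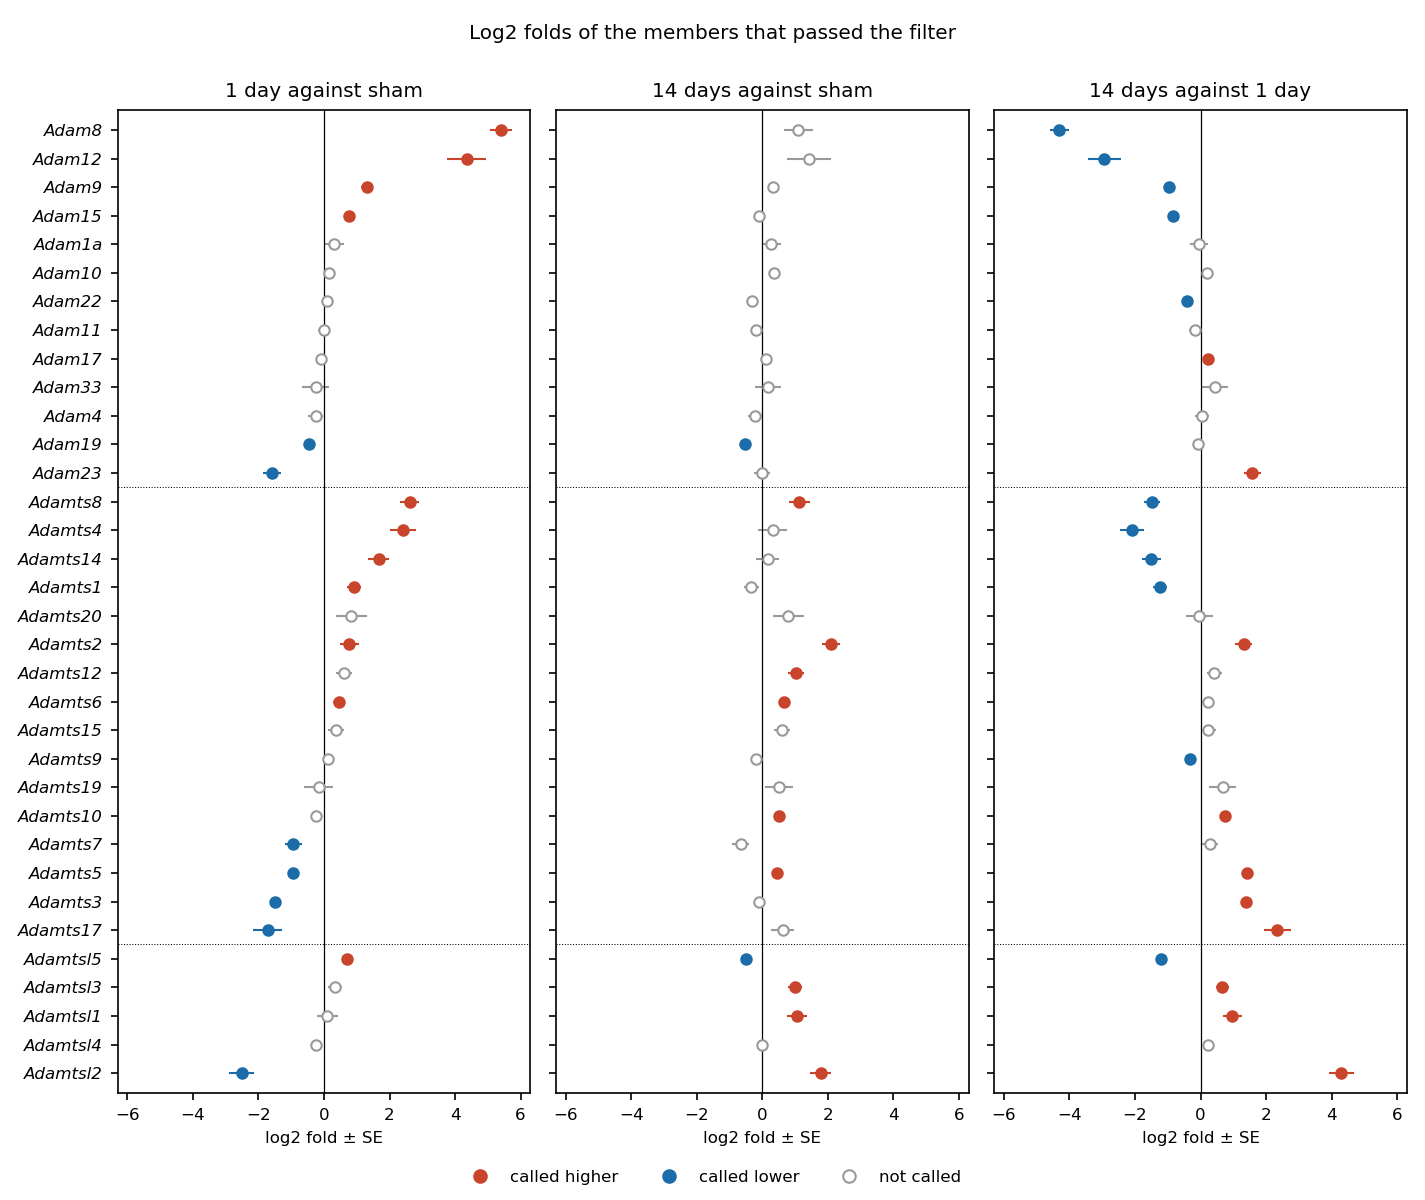
Log2 fold ± SE of the 34 tested members in the 3 comparisons, with Adam genes on top, then Adamts and then Adamts-like genes. Adam8 lies farthest right at 1 day against sham with 5.41, Adamts2 at 14 days against sham with 2.09, and Adamtsl2 at 14 days against 1 day with 4.30.

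The stretches of 250 bases before the start of transcription are shown for the 3 members that lay farthest above their reference in these comparisons, since they differ widely in CG dinucleotides, which are in capitals. They are from the RefSeq promoter table of build GRCm38.p6, at chr7:139992563-139992812 on the minus strand for Adam8, chr11:50601835-50602084 on the plus strand for Adamts2 and chr2:27079129-27079378 on the plus strand for Adamtsl2.
Adam8: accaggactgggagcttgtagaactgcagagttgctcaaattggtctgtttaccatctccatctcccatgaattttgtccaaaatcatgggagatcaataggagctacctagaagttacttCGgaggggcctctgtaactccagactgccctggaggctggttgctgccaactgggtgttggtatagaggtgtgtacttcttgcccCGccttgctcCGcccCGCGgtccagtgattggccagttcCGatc
Adamts2: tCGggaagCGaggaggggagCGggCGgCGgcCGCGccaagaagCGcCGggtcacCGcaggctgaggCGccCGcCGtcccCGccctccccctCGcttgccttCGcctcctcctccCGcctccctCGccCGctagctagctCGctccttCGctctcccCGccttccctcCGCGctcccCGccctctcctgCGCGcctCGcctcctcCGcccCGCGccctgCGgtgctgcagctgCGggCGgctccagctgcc
Adamtsl2: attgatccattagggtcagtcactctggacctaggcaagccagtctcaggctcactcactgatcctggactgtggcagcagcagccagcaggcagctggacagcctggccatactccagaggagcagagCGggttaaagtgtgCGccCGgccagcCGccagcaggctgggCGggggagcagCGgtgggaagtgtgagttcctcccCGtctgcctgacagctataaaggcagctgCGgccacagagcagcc

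Adam8 held 6 CG dinucleotides in this stretch, Adamtsl2 held 8 and Adamts2 held 34. The table matched 31 members, 20 of them tested, and Adam9, Adam12, Adamts4, Adamts5 and Adamts8 were among those it did not hold. Over the 20 tested members with a promoter the median was 20 CG dinucleotides and 15 of them (75.0%) held 10 or more, against 37.8% of all 32851 promoters in the table. Those 32851 promoters belong to 27025 genes, whether or not they passed the filter, while each of the 20 was counted with 1 promoter. The share among all genes that passed the filter was not computed. Over the 11 matched members below the filter the median was 1, and 1 of them (9.09%) held 10 or more, so that the share differed within the family between tested and untested genes. The feature was chosen after values had been seen and is a description. Motifs were searched on both strands, and a member was counted when any of its promoters held the letters, while the shares of all are of single promoters. The letters TGANTCA, a form of the AP-1 site, occurred in 1 of the 20, Adam19, and in 6.75% of all promoters. The letters CATTCC, a TEAD site, also occurred in Adam19 alone, and in 12.6% of all promoters. The letters TGACGTCA, a CRE, occurred in none of the 20 and in 1.55% of all promoters.

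The Adam sheddases rose at 1 day in 4 of the 8 tested members of a list of 9 and fell in 1, Adam19. Of all genes, 29.4% were called higher and 24.8% lower at 1 day. By total count 5 of the 8 sheddases were called higher and 0 lower, where 6860 and 1057 of all 14124 genes were. Adam8, a sheddase known from leukocytes, lies on chromosome 7 at 139978932 to 139992562. It had 0.485, 1.32 and 0.940 CPM in the 14-day libraries, 19.7, 22.2 and 13.3 CPM in the 1-day libraries, and 0.461, 0.472 and 0.320 CPM in the sham libraries. The 1-day libraries lay far above all others, and mouse 6 was the lowest of them. Adam8 rose 42.4-fold at 1 day against sham, a log2 fold of 5.41 (SE 0.33, adjusted p = 4.12e-06). It was lower at 14 days than at 1 day by a log2 fold of -4.31 (SE 0.28, adjusted p = 4.66e-06). At 14 days all 3 libraries were above sham, with a log2 fold of 1.10 (SE 0.44, adjusted p = 0.123) that did not pass the test, although without mouse 6 the adjusted p was 0.0449.

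Adam12, also called meltrin alpha, sheds ligands of the EGF receptor and lies on chromosome 7 at 133883199 to 134232146. Its levels were 1.25, 2.52 and 4.29 CPM at 14 days, 26.5, 25.8 and 7.84 CPM at 1 day and 1.17, 0.910 and 0.831 CPM in sham. Mouse 6 was again the lowest of the 1-day group, well below the others, yet above every library of the other groups. The log2 fold at 1 day against sham was 4.36 (SE 0.60, adjusted p = 0.000419), and it was 4.73 without mouse 6. At 14 days Adam12 was lower than at 1 day by a log2 fold of -2.93 (SE 0.50, adjusted p = 0.00141). Against sham it did not pass the test at 14 days, where the log2 fold was 1.42 (SE 0.68, adjusted p = 0.194).

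Adam9, or meltrin gamma, is a widely expressed sheddase on chromosome 8 at 24949611 to 25016927. It measured 27.6, 30.8 and 37.5 CPM at 14 days, 69.7, 70.1 and 46.7 CPM at 1 day and 26.4, 25.4 and 24.1 CPM in sham, so that no 1-day library overlapped another group. It rose 2.46-fold at 1 day (log2 fold 1.30, SE 0.16, adjusted p = 0.000114) and was lower at 14 days than at 1 day (log2 fold -0.96, SE 0.16, adjusted p = 0.00057). Adam15, or metargidin, averaged 17.9 ± 1.02 CPM at 14 days, 32.3 ± 3.56 CPM at 1 day and 19.0 ± 1.39 CPM in sham (SD, n = 3 each), and rose 1.70-fold at 1 day (adjusted p = 0.00015). In Adam15, 20.6% of the exonic bases are shared with a gene on the other strand, and the sources used here do not say whether the counting used strand.

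Adam19, or meltrin beta, sheds neuregulins and is needed for valve and septum formation in the mouse heart. It lies on chromosome 11 at 46055992 to 46147343. It had 35, 41.4 and 32.5 CPM at 14 days, 36.9, 42.1 and 36.4 CPM at 1 day and 56.9, 55.2 and 46.3 CPM in sham. All sham libraries were above all libraries after the operation. Adam19 fell to 0.728 times the sham level at 1 day (log2 fold -0.46, SE 0.12, adjusted p = 0.00601), but the sign turned under total-count scaling, with a log2 fold of 0.012 there. At 14 days it was lower than sham by a log2 fold of -0.54 (SE 0.12, adjusted p = 0.0125), a call that was not made without mouse 1, without mouse 2 or by total count (adjusted p up to 0.163). Antisense genes share 15.0% of its exonic bases.

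Adam10 and Adam17 are the best known sheddases. Adam10, which cuts Notch receptors and the amyloid precursor, had 34.4, 42.3 and 40.3 CPM at 14 days, 33.7, 37.6 and 29.5 CPM at 1 day and 30.2, 29.1 and 32.3 CPM in sham. Its 14-day libraries were above all sham libraries, with a log2 fold of 0.35 (SE 0.11, adjusted p = 0.0518) that lay just outside the threshold, and the adjusted p was 0.0165 without mouse 6. Adam17, the enzyme that releases tumor necrosis factor, averaged 28.5 ± 1.56 CPM at 14 days, 24.4 ± 0.517 CPM at 1 day and 26.1 ± 2.0 CPM in sham (SD, n = 3 each). It was called higher at 14 days than at 1 day (log2 fold 0.22, adjusted p = 0.0434), but 10 of 18 alternatives ended this call and total-count scaling turned it to -0.16. Adam33, a sheddase linked to asthma in humans, averaged 0.577, 0.390 and 0.521 CPM at 14 days, at 1 day and in sham and was not called.

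Adam11, Adam22 and Adam23 have no protease activity and are receptors of LGI proteins in the nervous system. Adam23, on chromosome 1 at 63445891 to 63596276, had 2.49, 2.29 and 1.76 CPM at 14 days, 0.860, 0.437 and 0.851 CPM at 1 day and 2.30, 1.89 and 2.49 CPM in sham. Its 1-day libraries were all below 1 CPM and did not overlap the others. It fell 3.01-fold at 1 day against sham (log2 fold -1.59, SE 0.27, adjusted p = 0.00055) and was 2.99-fold higher at 14 days than at 1 day (log2 fold 1.58, SE 0.26, adjusted p = 0.000542). Adam22 was called only between the 2 times, with 10.1 ± 1.01 CPM at 14 days and 13.4 ± 1.67 CPM at 1 day (SD, n = 3 each), a call that was not made without mouse 5, library B or library C (adjusted p up to 0.0599). Adam11, at 3.54 ± 0.305 CPM at 14 days, 4.07 ± 0.865 CPM at 1 day and 4.05 ± 0.537 CPM in sham (SD, n = 3 each), was not called. Adam1a and Adam4, known from sperm and testis in the mouse, averaged 0.760 to 1.92 CPM over the groups and were not called, and 87.7% of the exonic bases of Adam1a are shared with genes on its own strand.

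**Figure D2:**
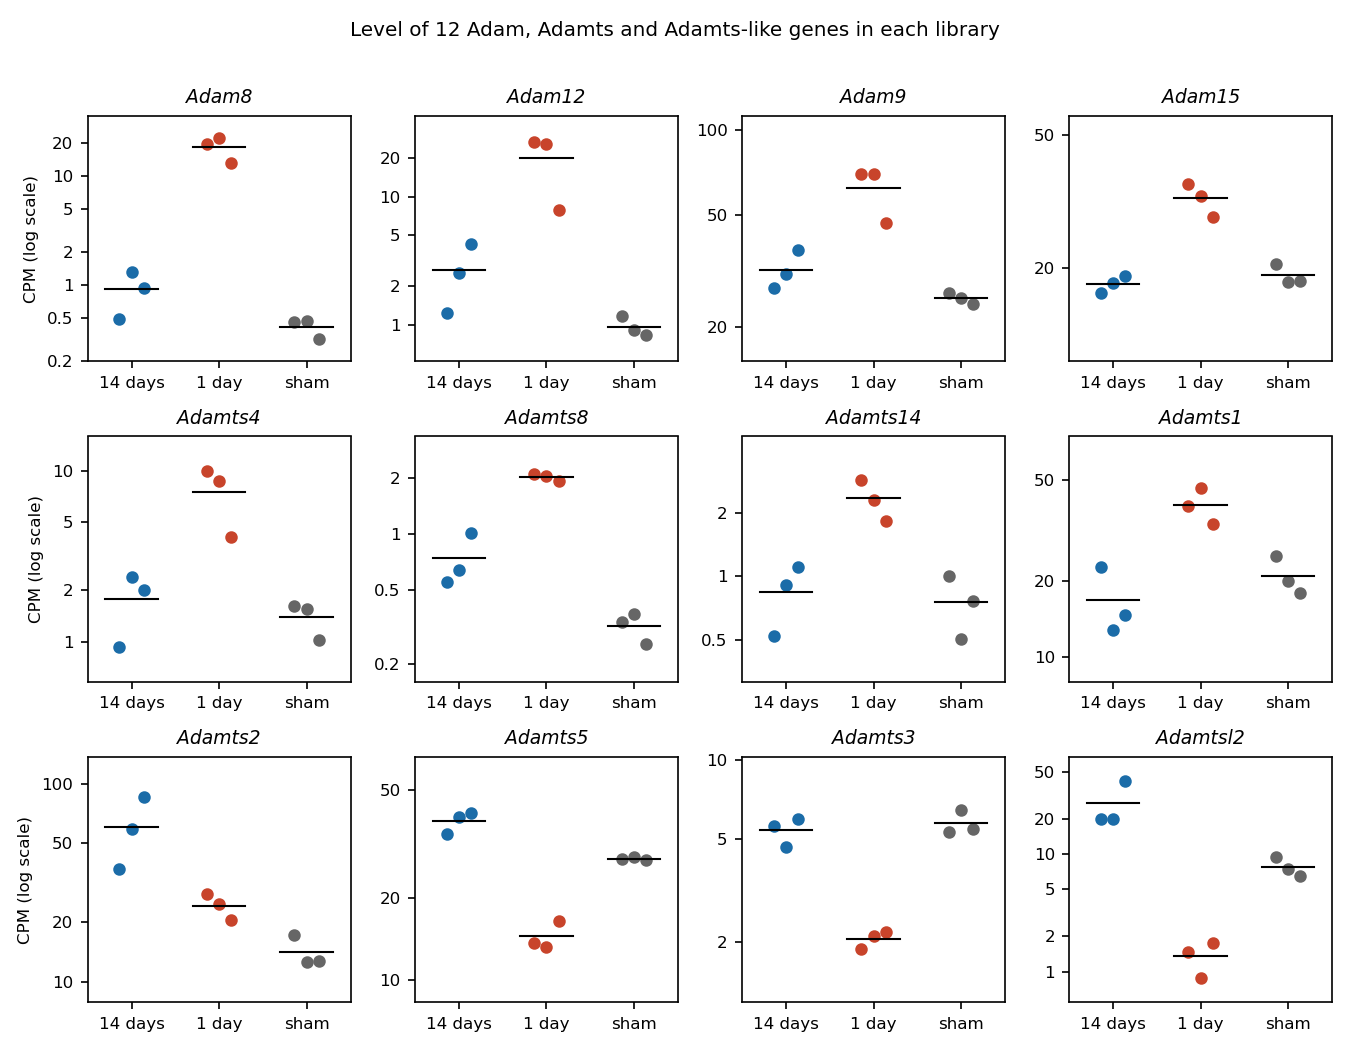
CPM on a log axis for 12 members in the 3 libraries at 14 days, at 1 day and in sham, with a point for each library and a line at the mean. Adam8, Adam12, Adam9, Adam15, Adamts4, Adamts8, Adamts14 and Adamts1 are highest at 1 day, Adamts3, Adamts5 and Adamtsl2 are lowest there, and Adamts2 is highest at 14 days.

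The proteoglycanases are the Adamts enzymes that cut versican and aggrecan. Of the 7 tested, 3 rose at 1 day (Adamts1, Adamts4 and Adamts8) and 1 fell (Adamts5), while 2 were higher than sham at 14 days (Adamts5 and Adamts8). With TMM the shares were 42.9% higher and 14.3% lower at 1 day, against 29.4% and 24.8% of all genes, and 28.6% higher at 14 days, against 8.75%. By total count 6 of the 7 were called higher at 1 day and 0 at 14 days, where 6860 and 720 of all 14124 genes were. Adamts4, an aggrecanase on chromosome 1 at 171250421 to 171260637, had 0.935, 2.40 and 2.0 CPM at 14 days, 9.91, 8.70 and 4.08 CPM at 1 day and 1.63, 1.55 and 1.02 CPM in sham. Every 1-day library was above every other library, and mouse 6 was the lowest of the 3. Adamts4 rose 5.31-fold at 1 day (log2 fold 2.41, SE 0.39, adjusted p = 0.000723) and was 4.27-fold lower at 14 days than at 1 day (log2 fold -2.09, SE 0.37, adjusted p = 0.00122). Without mouse 6 its log2 fold at 1 day against sham was 2.68.

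Adamts8, on chromosome 9 at 30942562 to 30963838, was a low gene with 0.554, 0.645 and 1.02 CPM at 14 days, 2.10, 2.06 and 1.93 CPM at 1 day and 0.335, 0.371 and 0.256 CPM in sham. The 3 groups did not overlap and stood in the order 1 day, 14 days, sham. It rose 6.10-fold at 1 day (log2 fold 2.61, SE 0.29, adjusted p = 5.95e-05) and 2.19-fold at 14 days (log2 fold 1.13, SE 0.32, adjusted p = 0.0374), but 11 of 18 alternatives ended the call at 14 days, with adjusted p up to 0.162. A gene on the other strand shares 10.6% of its exonic bases. Adamts15, its neighbour at 20.1 kb on the other strand, averaged 8.49 ± 2.39 CPM at 14 days, 7.11 ± 1.44 CPM at 1 day and 5.45 ± 1.36 CPM in sham (SD, n = 3 each) and was not called.

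Adamts1 and Adamts5 lie 53.1 kb apart on the minus strand of chromosome 16 and moved in opposite directions at 1 day. Adamts1, at 85793827 to 85803113, had 22.7, 12.8 and 14.7 CPM at 14 days, 39.4, 46.3 and 33.4 CPM at 1 day and 24.9, 19.9 and 17.9 CPM in sham. Its 1-day libraries were above all others, and the 14-day and sham libraries overlapped. Adamts1 rose 1.89-fold at 1 day (log2 fold 0.92, SE 0.21, adjusted p = 0.00464). Adamts5, the other main aggrecanase, at 85856173 to 85901828, had 34.3, 39.6 and 41.2 CPM at 14 days, 13.7, 13.2 and 16.5 CPM at 1 day and 27.9, 28.2 and 27.5 CPM in sham. The groups did not overlap, with 1 day lowest and 14 days highest. Adamts5 fell 1.93-fold at 1 day (log2 fold -0.95, SE 0.10, adjusted p = 5.93e-05) and rose 1.38-fold at 14 days (log2 fold 0.46, SE 0.10, adjusted p = 0.0142), though the rise at 14 days was not called when any 1 of the 3 sham libraries, library B or library C was left out, or by total count (adjusted p up to 0.0782).

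Adamts9 and Adamts20 are the large proteoglycanases related to Gon-1 of the worm. Adamts9 averaged 34.6 ± 5.83 CPM at 14 days, 43.3 ± 3.85 CPM at 1 day and 39.7 ± 2.21 CPM in sham (SD, n = 3 each), with a call between the 2 times (log2 fold -0.32, adjusted p = 0.0446) that 11 of 18 alternatives ended. Adamts20 was low, at 0.546, 0.562 and 0.333 CPM at 14 days, at 1 day and in sham, and was not called.

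Adamts2, Adamts3 and Adamts14 remove the amino-terminal propeptide of procollagens, a step before collagen forms fibrils, and each had a different course. Adamts2, on chromosome 11 at 50602084 to 50807573, had 36.9, 59.4 and 85.2 CPM at 14 days, 27.6, 24.6 and 20.4 CPM at 1 day and 17.2, 12.6 and 12.7 CPM in sham. The groups did not overlap, and the 14-day libraries were spread the most, with C highest. Adamts2 rose 4.26-fold at 14 days against sham (log2 fold 2.09, SE 0.28, adjusted p = 0.0038) and was 2.49-fold higher at 14 days than at 1 day (log2 fold 1.31, SE 0.27, adjusted p = 0.00332). At 1 day it was 1.71-fold above sham (log2 fold 0.78, SE 0.28, adjusted p = 0.0399), but this call was lost in 7 of 18 alternatives, 6 of which left out mouse 2, 3, 4, 5 or 6 or library B, with adjusted p up to 0.134.

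Adamts14, on chromosome 10 at 61197112 to 61273438, had 0.519, 0.909 and 1.10 CPM at 14 days, 2.87, 2.30 and 1.84 CPM at 1 day and 1.00, 0.505 and 0.767 CPM in sham. Only the 1-day libraries stood apart. It rose 3.17-fold at 1 day (log2 fold 1.66, SE 0.32, adjusted p = 0.00121) and was 2.82-fold lower at 14 days than at 1 day (log2 fold -1.50, SE 0.30, adjusted p = 0.00179). Adamts3, which also activates the growth factor Vegfc, averaged 5.41 ± 0.676 CPM at 14 days, 2.06 ± 0.163 CPM at 1 day and 5.73 ± 0.616 CPM in sham (SD, n = 3 each). It fell 2.81-fold at 1 day (log2 fold -1.49, SE 0.15, adjusted p = 4.03e-05) and was 2.64-fold higher at 14 days than at 1 day (log2 fold 1.4, SE 0.15, adjusted p = 4.97e-05).

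Among the Adamts enzymes with other substrates, 6 were tested, of which 1 rose and 2 fell at 1 day and 3 rose at 14 days. With TMM, 29.4% of all genes were called higher and 24.8% lower at 1 day, and 8.75% higher at 14 days. By total count 2 of the 6 were called higher and 1 lower at 1 day, where 6860 and 1057 of all 14124 genes were. At 14 days 1 of the 6 was called higher by total count, where 720 of all genes were. Adamts12, which cuts the cartilage oligomeric matrix protein Comp, lies on chromosome 15 at 11064790 to 11349231 and had 5.33, 9.26 and 9.20 CPM at 14 days, 6.97, 6.67 and 3.94 CPM at 1 day and 4.14, 3.81 and 3.71 CPM in sham. The 14-day libraries were all above sham. It rose 2.04-fold at 14 days (log2 fold 1.03, SE 0.25, adjusted p = 0.0221), a call that was not made when any 1 sham library, library B or library C was left out (adjusted p up to 0.0983). At 1 day its log2 fold of 0.61 did not pass the test (adjusted p = 0.0628), although without mouse 6 the adjusted p was 0.00583. It was not called between the 2 times (adjusted p = 0.157). Adamts6, on chromosome 13 at 104287835 to 104496695, is a microfibril-associated enzyme needed for heart formation in the mouse, and had 6.23, 7.71 and 10.2 CPM at 14 days, 7.11, 6.91 and 6.68 CPM at 1 day and 4.69, 5.36 and 5.11 CPM in sham. Sham was below both other groups. The rise at 14 days was 1.58-fold (log2 fold 0.66, SE 0.16, adjusted p = 0.0215) and that at 1 day 1.37-fold (log2 fold 0.45, SE 0.16, adjusted p = 0.0368), while 6 of 18 alternatives ended the call at 14 days (adjusted p up to 0.0866) and 8 that at 1 day (adjusted p up to 0.122). Adamts10, which binds fibrillin, averaged 19.1 ± 4.73 CPM at 14 days, 11.2 ± 0.838 CPM at 1 day and 13.2 ± 0.252 CPM in sham (SD, n = 3 each), and rose 1.44-fold at 14 days against sham (adjusted p = 0.0366, a call that 9 of 18 alternatives ended, with adjusted p up to 0.128).

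Adamts17, another microfibril-associated enzyme, lies on chromosome 7 at 66839735 to 67153171. It had 0.727, 1.5 and 1.43 CPM at 14 days, 0.294, 0.0794 and 0.314 CPM at 1 day and 0.712, 0.741 and 0.959 CPM in sham. The 1-day values rest on 13, 2 and 7 counts, and mouse 5 was under the limit of 3 counts. The groups at 1 day and in sham did not overlap, and Adamts17 fell at 1 day with a log2 fold of -1.72 (SE 0.45, adjusted p = 0.00714). It was higher at 14 days than at 1 day by a log2 fold of 2.34 (SE 0.41, adjusted p = 0.000823). Adamts7, which like Adamts12 cuts Comp, averaged 6.65 ± 1.67 CPM at 14 days, 5.54 ± 2.13 CPM at 1 day and 10.6 ± 0.888 CPM in sham (SD, n = 3 each), and fell 1.91-fold at 1 day (adjusted p = 0.0113), a call that was not made by total count or with no filter on low counts (adjusted p up to 0.137). Its 14-day libraries were also all below sham, with a log2 fold of -0.66 that did not pass the test (adjusted p = 0.111). It was not called between the 2 times (adjusted p = 0.398). Adamts19, linked to valve disease in humans, averaged 0.905, 0.556 and 0.643 CPM at 14 days, at 1 day and in sham and was not called.

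Among the 5 Adamts-like genes, 1 rose and 1 fell at 1 day, and 3 rose and 1 fell at 14 days against sham. Of all genes, 29.4% were called higher and 24.8% lower at 1 day with TMM, and 8.75% and 5.64% at 14 days. By total count 2 of the 5 were called higher at 1 day, where 6860 of all 14124 genes were. At 14 days 2 were called higher and 0 lower by total count, where 720 and 112 of all genes were. Without mouse 6 the number of Adamts-like genes called lower at 1 day was 2. Adamtsl2, mutated in human geleophysic dysplasia and a binding partner of the latent TGF-beta binding protein Ltbp1, lies on chromosome 2 at 27079379 to 27108981. It had 19.7, 19.8 and 41.8 CPM at 14 days, 1.47, 0.874 and 1.75 CPM at 1 day and 9.42, 7.48 and 6.45 CPM in sham. No library overlapped another group, and library C was the highest of the 14-day group. Adamtsl2 fell 5.71-fold at 1 day against sham (log2 fold -2.51, SE 0.39, adjusted p = 0.000721). It rose 3.44-fold at 14 days against sham (log2 fold 1.78, SE 0.32, adjusted p = 0.00885) and was 19.7-fold higher at 14 days than at 1 day (log2 fold 4.30, SE 0.38, adjusted p = 4.87e-05). These 3 calls stood in all 18 alternatives. The protease gene next to it, Adamts13, ends 69.8 kb before it on the same strand and had no count in any library.

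Adamtsl1 and Adamtsl3, the punctins, rose at 14 days. Adamtsl1, on chromosome 4 at 85514172 to 86428385, had 2.01, 2.49 and 3.60 CPM at 14 days, 1.79, 1.15 and 1.03 CPM at 1 day and 1.38, 0.910 and 1.66 CPM in sham. Adamtsl3, on chromosome 7 at 82335694 to 82614450, had 11.3, 11.2 and 18.6 CPM at 14 days, 7.88, 7.23 and 10.8 CPM at 1 day and 6.41, 7.28 and 6.65 CPM in sham. In both genes the 14-day libraries were above all others and C was the highest. The rise at 14 days against sham was 2.10-fold for Adamtsl1 (log2 fold 1.07, SE 0.30, adjusted p = 0.0364) and 2.01-fold for Adamtsl3 (log2 fold 1.01, SE 0.21, adjusted p = 0.0134). Neither was called when any 1 sham library was left out (adjusted p up to 0.174 and 0.0568). Adamtsl5, a fibrillin-binding protein on chromosome 10 at 80339110 to 80348412, had 18.5, 18.8 and 17.5 CPM at 14 days, 46.6, 40.4 and 38.1 CPM at 1 day and 24.8, 26.8 and 24.9 CPM in sham. The groups did not overlap and stood in the order 1 day, sham, 14 days. Adamtsl5 rose 1.64-fold at 1 day (log2 fold 0.71, SE 0.09, adjusted p = 0.000134) and fell 1.4-fold at 14 days (log2 fold -0.48, SE 0.09, adjusted p = 0.00818), a fall that was not called without mouse 2 or by total count (adjusted p up to 0.271). Adamtsl4, also a fibrillin-binding protein, averaged 14.4 ± 1.73 CPM at 14 days, 12.2 ± 1.83 CPM at 1 day and 14.6 ± 0.455 CPM in sham (SD, n = 3 each) and was not called. Without mouse 6 it was called lower at 1 day than in sham (log2 fold -0.38, adjusted p = 0.0112) and higher at 14 days than at 1 day (log2 fold 0.36, adjusted p = 0.0152).

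At 14 days against sham, Adamts2 and Adamtsl2 were the only members called in all 18 alternatives. Of the 9 members called higher, 2 (Adamts2 and Adamtsl2) were still called without mouse 1, without mouse 2 or without mouse 3, and 3 (Adamts2, Adamtsl2 and Adamtsl3) without library B or without library C. All genes called in either direction also fell, from 2033 to 912, 478 and 1025 without mouse 1, 2 or 3. Without library B or C they numbered 722 and 775. At 1 day against sham, 14 of 18 calls stood in all alternatives, and at 14 days against 1 day 14 of 21 did. The matching shares of all genes were not computed.

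Per kilobase of exonic length the order of the members differed between groups. At 14 days the highest were Adam10 with 7.93 ± 0.840, Adam9 with 7.76 ± 1.23, Adamts2 with 6.48 ± 2.59 and Adam19 with 5.10 ± 0.641 CPM per kb (SD, n = 3). At 1 day they were Adam9 with 15.1 ± 3.25, Adamtsl5 with 8.83 ± 0.928, Adamts1 with 7.49 ± 1.22 and Adam10 with 6.84 ± 0.823 CPM per kb. In sham they were Adam19 with 7.42 ± 0.804, Adam10 with 6.22 ± 0.333, Adam9 with 6.15 ± 0.271 and Adamtsl5 with 5.40 ± 0.230 CPM per kb. Neighbours in these orders lay within their SDs, except Adam9 above Adamtsl5 at 1 day and Adam19 above Adam10 and Adam9 above Adamtsl5 in sham. Summed over all members, the family gave 66.9 ± 6.93 CPM per kb at 14 days, 79.4 ± 8.89 at 1 day and 57.7 ± 2.49 in sham (SD, n = 3 each). Adamts2 made up 9.49% of that sum at 14 days, 3.26% at 1 day and 2.62% in sham. Adam8 made up 0.292%, 4.95% and 0.155% in the same groups, and Adam9 11.6%, 18.8% and 10.7%.

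**Figure D3:**
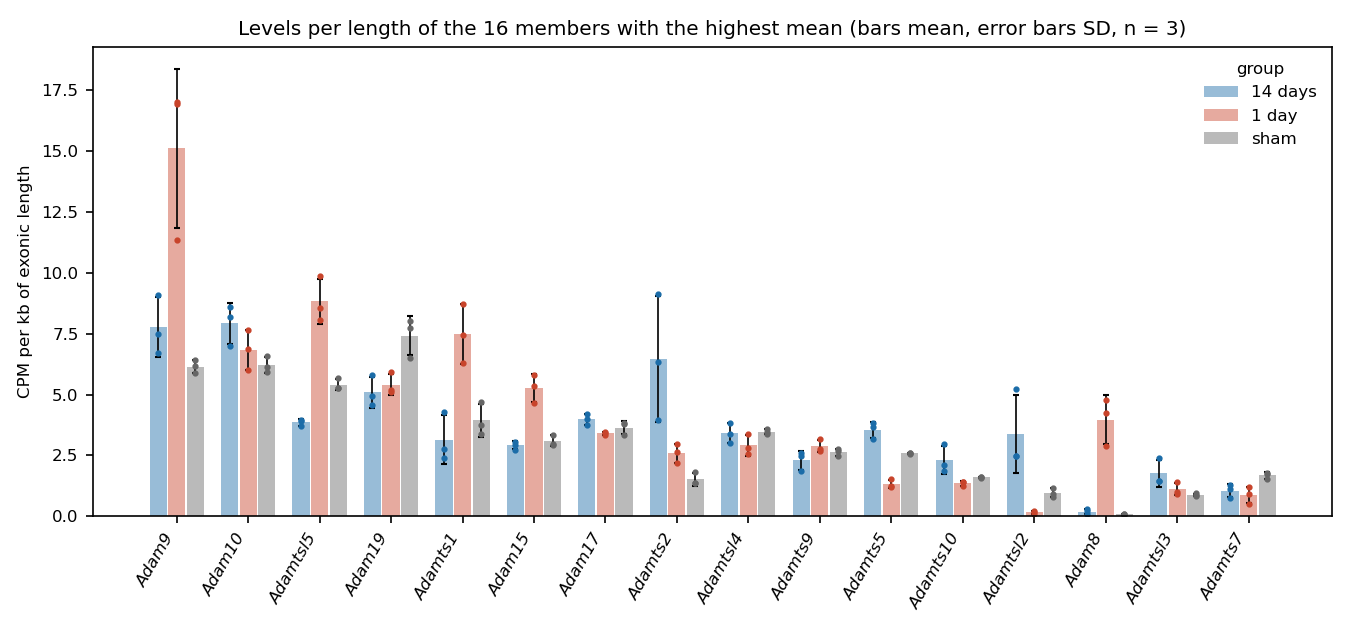
CPM per kb of exonic length for the 16 members with the highest mean over all libraries, as bars (mean), error bars (SD, n = 3) and points (libraries) at 14 days, at 1 day and in sham. Adam9 at 1 day reaches 15.1 CPM per kb, the highest mean in the plot, and Adamts2 reaches 6.48 at 14 days, against 2.59 at 1 day and 1.52 in sham.

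Cell type markers moved alongside these members. Of 10 leukocyte markers, 8 were tested, and 6 were called higher at 1 day and 4 at 14 days than in sham, or 8 and 2 by total count. Of all genes, 29.4% were called higher at 1 day and 8.75% at 14 days with TMM. By total count 6860 of all 14124 genes were called higher and 1057 lower at 1 day, and 720 higher at 14 days. The sum of the 10 was 65.7 to 119 CPM at 14 days, 110 to 164 CPM at 1 day and 52.4 to 61.5 CPM in sham. Mouse 6, which was lowest of its group for Adam8, Adam9, Adam12 and Adamts4, was also lowest in this sum at 1 day. It was likewise lowest at 1 day in the fibroblast sum, with 363 CPM, and highest in the cardiomyocyte sum, with 12320 CPM. The sum of 6 fibroblast markers was 907 to 2202 CPM at 14 days. It was 363 to 450 CPM at 1 day and 340 to 472 CPM in sham. Library C was highest at 14 days in this sum, as for Adamts2 and Adamtsl2, and also in the leukocyte sum. Of the 6 fibroblast markers, 5 (83.3%) were called higher at 14 days than in sham, against 8.75% of all genes. At 1 day 2 were called higher and 2 lower (33.3% each, against 29.4% and 24.8%), or 1 and 1 by total count. Of 6 cardiomyocyte markers, 5 (83.3%), or 3 by total count, were called lower at 1 day than in sham, against 24.8% of all genes. No leukocyte, fibroblast or cardiomyocyte marker was at 0 in every library. The part of these markers in the results was not tested.

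Of 12 tested regulators of the sheddases, from a list of 13, 6 rose and 3 fell at 1 day against sham, where 29.4% of all genes were called higher and 24.8% lower. Furin, a convertase that removes the inhibitory prodomain, averaged 20.2 ± 1.91 CPM at 14 days, 46.6 ± 1.92 CPM at 1 day and 31.7 ± 2.78 CPM in sham (SD, n = 3 each), with log2 folds of 0.56 at 1 day (adjusted p = 0.000674) and -0.65 at 14 days (adjusted p = 0.00341) against sham. Rhbdf1, an iRhom that carries Adam17 to the cell surface, rose at 1 day (log2 fold 0.84, adjusted p = 0.000393). Its relative Rhbdf2 also rose at 1 day (log2 fold 0.52, adjusted p = 0.00581) and fell at 14 days against sham (log2 fold -0.55, adjusted p = 0.0215). The convertase Pcsk6 fell at 1 day with a log2 fold of -2.10 (adjusted p = 0.000145), and Tspan15, a tetraspanin that binds Adam10, fell with a log2 fold of -0.67 (adjusted p = 0.00213). At 14 days against 1 day, 3 regulators were called higher, among them Pcsk6 and Tspan15, and 5 lower, among them Furin and Rhbdf1. These were 25.0% and 41.7% of the 12, against 25.1% and 26.8% of all genes. By total count 1 regulator, and not 3, was called lower at 1 day against sham, 0 and not 2 lower at 14 days against sham, and 1 and not 3 higher at 14 days against 1 day.

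The inhibitors differed in their course. Timp1 averaged 7.02 ± 2.89 CPM at 14 days, 58.3 ± 15.5 CPM at 1 day and 1.01 ± 0.392 CPM in sham (SD, n = 3 each), and rose with log2 folds of 5.83 at 1 day (adjusted p = 1.86e-05) and 2.76 at 14 days (adjusted p = 0.00585). Timp3, the inhibitor that acts on Adam17 and on the aggrecanases, averaged 134 ± 29.2 CPM at 14 days, 58.5 ± 16.5 CPM at 1 day and 74.5 ± 6.83 CPM in sham (SD, n = 3 each) and rose at 14 days (log2 fold 0.85, adjusted p = 0.0211). Timp2 and Reck, a membrane-anchored inhibitor, fell at 1 day against sham (log2 folds -0.79 and -0.59, adjusted p = 0.00689 and 0.0394) and rose at 14 days (log2 folds 1.19 and 0.79, adjusted p = 0.00578 and 0.0267). Between the 2 times Timp2, Timp3, Timp4 and Reck were called higher at 14 days and Timp1 was called lower. The call of Timp4 was just inside the threshold (adjusted p = 0.0496). Timp4 had 12.05, 3.225 and 3.352 CPM at 14 days and 1.991, 1.946 and 3.495 CPM at 1 day. Only library A was above all 1-day libraries. Of the 5 tested inhibitors, 2 (40.0%) were called lower at 1 day, against 24.8% of all genes. This number was 4 without mouse 6 and 0 by total count, where 1057 of all 14124 genes were called lower. At 1 day 1 of the 5 was called higher than in sham, where 29.4% of all genes were. At 14 days 4 were called higher than in sham, where 8.75% of all genes were. Between the 2 times 4 were called higher at 14 days and 1 lower, where 25.1% and 26.8% of all genes were.

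Of 30 tested proteins shed by Adam10 or Adam17, from a list of 32, 19 were called higher and 1 lower at 1 day, and 9 higher and 1 lower at 14 days against sham. The shares called higher were 63.3% at 1 day, against 29.4% of all genes, and 30.0% at 14 days, against 8.75%. The share called lower was 3.33% at both times, against 24.8% and 5.64% of all genes. Those with the highest levels that rose were Lrp1 (log2 folds 0.61 at 1 day and 0.86 at 14 days, adjusted p = 0.0127 and 0.0112) and Axl (0.72 and 0.66, adjusted p = 0.00317 and 0.0212). Notch3 fell at 14 days (log2 fold -0.47, adjusted p = 0.0244), and the number called lower at 14 days was 0 by total count and 2 without mouse 6. At 14 days against 1 day 12 (40.0%) were called lower, among them Notch1 and Cd44, against 26.8% of all genes.

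Of 12 tested substrates of Adamts enzymes, from a list of 16, 5 rose and 2 fell at 1 day, and 9 rose at 14 days against sham. The shares called higher were 41.7% at 1 day, against 29.4% of all genes, and 75.0% at 14 days, against 8.75%. The share called lower at 1 day was 16.7%, against 24.8% of all genes. The procollagen Col3a1, a substrate of Adamts2, averaged 1521 ± 685 CPM at 14 days, 405 ± 84.3 CPM at 1 day and 241 ± 127 CPM in sham (SD, n = 3 each), with log2 folds of 2.66 at 14 days against sham (adjusted p = 0.00544) and 1.91 at 14 days against 1 day (adjusted p = 0.00359). Fbn1, the fibrillin bound by several members, rose at both times (log2 folds 1.03 at 1 day and 1.52 at 14 days, adjusted p = 0.00531 and 0.00544), and so did Fn1 (log2 folds 2.15 and 1.91, adjusted p = 0.00264 and 0.0202). Vwf and Ltbp1, the binding partner of Adamtsl2, fell at 1 day (log2 folds -0.81 and -0.61, adjusted p = 0.00704 and 0.000304). Between the 2 times Col1a2, Col3a1, Comp, Fbn2 and Ltbp1 were called higher at 14 days, or 41.7% of the 12, against 25.1% of all genes. Comp averaged 40.5 ± 23.1 CPM at 14 days, 0.107 ± 0.0156 CPM at 1 day and 0.533 ± 0.101 CPM in sham (SD, n = 3 each), and no fold is given because its level at 1 day was near the limit of 3 counts. By total count 0 substrates, and not 2, were called lower at 1 day against sham, 4 and not 9 higher at 14 days against sham, and 2 and not 5 higher at 14 days against 1 day.

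**Figure D4:**
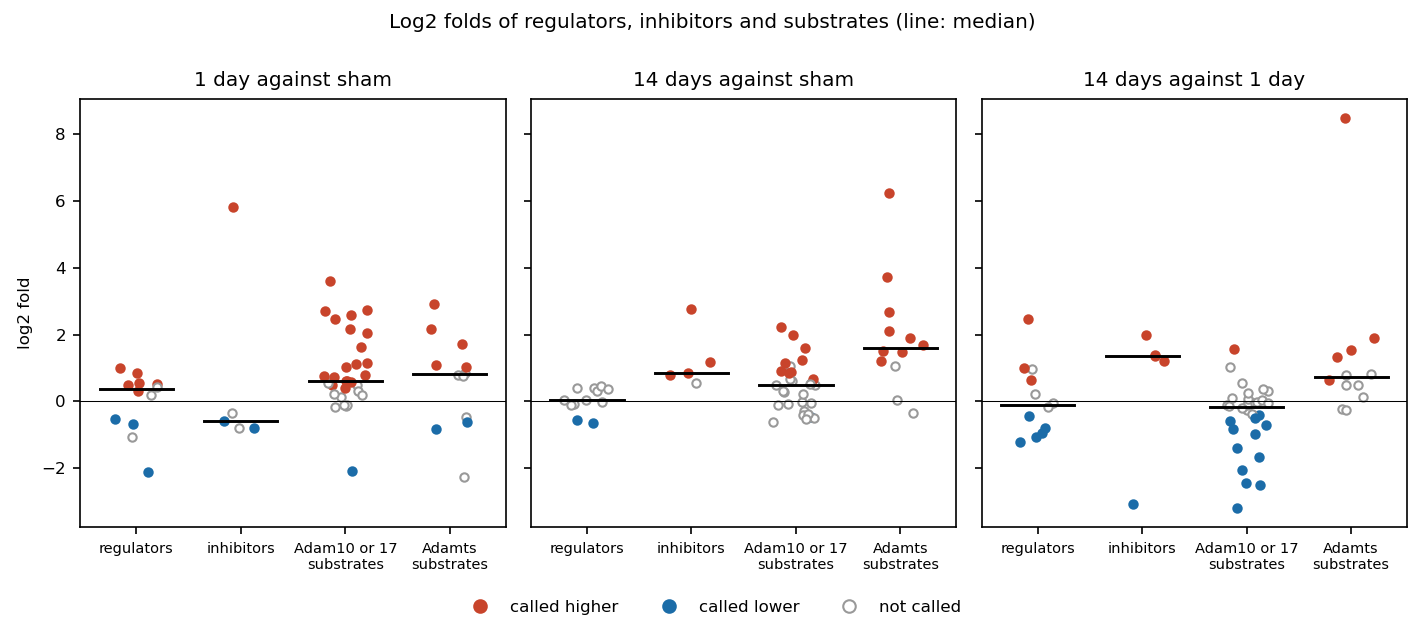
Log2 folds of the tested regulators (12), inhibitors (5), proteins shed by Adam10 or Adam17 (30) and substrates of Adamts enzymes (12) in the 3 comparisons, with a line at the median of each list. Timp1 lies highest at 1 day against sham with 5.83, and Comp lies highest at 14 days against 1 day.

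Of related proteins outside the family, Papln, which shares the Adamts-like domain structure, fell at 1 day against sham (log2 fold -2.01, adjusted p = 0.000482), and so did Mmp2 (log2 fold -1.19, adjusted p = 0.00704), while Bmp1, the procollagen C-proteinase, rose at 1 day (log2 fold 1.02, adjusted p = 0.0088) and at 14 days (log2 fold 0.94, adjusted p = 0.0425). Mmp14 rose at both times, with log2 folds of 1.24 and 1.38 (adjusted p = 0.00125 and 0.00582). Mmp2 and Mmp3 rose at 14 days against sham with log2 folds of 1.79 and 2.19 (adjusted p = 0.00597 and 0.0314). Between the 2 times Mmp2 and Papln were higher at 14 days, and Mmp3 and Mmp9 were lower, with a log2 fold of -5.20 for Mmp9 (adjusted p = 0.000427). Of the 7 related proteins tested, 2 (28.6%) were called lower at 1 day, against 24.8% of all genes. At 14 days 4 (57.1%) were called higher than in sham, against 8.75%. By total count these numbers were 1 and 2.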

How the data were processed

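The deposited table gives whole-number counts per Ensembl gene, made by the authors. The submitters' processing notes name STAR 2.7.1a and build GRCm38. Sources used here do not name the counting program, its annotation or its strand setting. Per the labels' protocols, the libraries were stranded total RNA with ribosomal RNA removed. Members and lists were chosen with earlier results of these data known. Names and merged exon lengths came from GENCODE M21.

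Genes were filtered with filterByExpr and tested with edgeR 4.0.16 (TMM, robust quasi-likelihood, 9 libraries in 1 fit, Benjamini-Hochberg over all genes). Fold changes are fitted values, and SE is the absolute log2 fold over the root of F. Every tested member is named. Values in each library are given for the 6 called members with the largest absolute log2 fold in each comparison (with 1 CPM or more where higher) and the 5 highest in CPM per kb. Of partner lists, all calls are named up to 5, otherwise the 2 with the highest CPM per direction. Replicate libraries differed by more than sampling noise (chi-square per degree of freedom 6.9 to 89.7), so each counts as 1. The fit was tested on simulated data. Alternatives were DESeq2 1.42.0 size factors and Wald test, total-count and upper-quartile scaling, TMM without mitochondrial genes, limma-voom 3.58.1, no filter, at least 1 CPM in 3 libraries, fits of 2 groups alone, and each of 9 libraries left out. Protein sequences were not used here. Some called genes of the partner lists are not reported here.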

Additional observations from a re-analysis of the deposited data

Results flagged for a closer look

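The level differed between the 2 times after the operation in 21 of the 34 tested members, by edgeR's test of 14 days against 1 day. This is also the difference between the effects at the 2 times, since the sham libraries are shared. The 21 were 61.8% of the tested members, against 51.9% of all genes. Called lower at 14 days were 32.4%, against 26.8% of all genes, and called higher 29.4%, against 25.1%. The log2 fold was below 0 in 11: -4.31 for Adam8, -2.93 for Adam12, -2.09 for Adamts4, -1.50 for Adamts14, -1.48 for Adamts8, -1.25 for Adamts1, -1.19 for Adamtsl5, -0.96 for Adam9, -0.85 for Adam15, -0.40 for Adam22 and -0.32 for Adamts9. It was above 0 in 10: 4.30 for Adamtsl2, 2.34 for Adamts17, 1.58 for Adam23, 1.41 for Adamts5, 1.4 for Adamts3, 1.31 for Adamts2, 0.97 for Adamtsl1, 0.76 for Adamts10, 0.67 for Adamtsl3 and 0.22 for Adam17. The calls of Adam17, Adam22, Adamts10, Adamts2, Adamts9, Adamtsl1 and Adamtsl3 were lost in at least 1 alternative, and the other 14 in none.

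Adamts16, on chromosome 13 at 70727802 to 70841811 and below the filter on low counts, had 27 counts over the 14-day libraries, with 1 in library A, 4 in B and 22 in C, against 3 over the 1-day libraries and 0 in each sham library. It was not tested, and most of the counts are from 1 library.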

How the results depend on the processing

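No paired analysis was possible because the groups share no replicate numbers. Of 18 alternatives for most members, scaling by total count called 18 members higher at 1 day against sham, where TMM gave 11, 4 higher and 0 lower at 14 days against sham, where TMM gave 9 and 2, 5 higher at 14 days against 1 day, where TMM gave 10, and 832 genes at 14 days against sham, where TMM gave 2033. It turned the log2 fold of Adam19 at 1 day against sham to 0.012, that of Adam17 at 14 days against 1 day to -0.16, and the median log2 fold of the members at 14 days against 1 day to -0.16. Its shift of the median of all genes is given with the calls. The fit of the 2 groups alone called 4 members lower at 14 days against sham. When 1 library was left out, the members called higher at 14 days against sham numbered 2 to 12, those called lower 0 to 4, and all genes called 478 (without mouse 2) to 3221 (without mouse 6). In the other comparisons, leaving out a library gave 9 to 12 members higher and 7 to 8 lower at 1 day against sham, and 7 to 13 higher and 9 to 11 lower at 14 days against 1 day. Of the partner lists, 2 alternatives were run, by total count and without mouse 6, both chosen after seeing the data.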
